A study of Mus musculus with 8 samples.

Results

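The 10 genes described here mark the lineages of dendritic cells (DC). From textbook markers, with earlier results of these data known, were chosen Xcr1, Clec9a, Batf3, Irf8, Flt3, Zbtb46, Cd209a, Siglech, Fscn1 and Ccl22, out of 32285 genes in the table. They were followed through 22441 CD45+ immune cells from 16 grafts of NIT-1 cells, a beta cell tumour line from NOD mice. Each NOD.scid host, which has no T or B cells of its own, carried wild-type (WT) NIT-1 cells in one flank and Rnls mutant (Rnlsmut) NIT-1 cells in the other, and received splenocytes of recently diabetic NOD mice intravenously 4 days after the cells were injected. Grafts were taken 10 or 17 days after the splenocyte transfer, which gives 4 groups of 4 grafts: WT at day 10, Rnlsmut at day 10, WT at day 17 and Rnlsmut at day 17. All 4 groups share the host strain, the kind of splenocytes transferred and the sort for live CD45+ cells, and differ in the graft's genotype and the day. The sources used here do not say whether hosts of both days received splenocytes of the same preparation. DC of the host and DC among the transferred splenocytes cannot be told apart. Whether the mutant line is 1 clone is not given in the sources used here.

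The replicate is the graft, known from its hashtag. The study describes its replicates as biological and paired, but the labels do not say which WT and Rnlsmut grafts came from the same mouse, so the pairs could not be used. Each of the 4 libraries held 1 genotype at 1 day, so that library and group cannot be told apart, and neither can library and day. A graft gave 350 to 1967 cells and 1742746 to 9729233 UMIs (unique molecular identifiers, each standing for 1 captured transcript), with a median of 2881.5 to 7822.5 UMIs per cell, and 42 barcodes were found in more than 1 library. Levels are given as CPM, that is, UMIs per 1000000 UMIs of the cells named. Since the assay counts 3′ ends, a level is compared between cells or grafts and never between genes.

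Dendritic cells take up antigen and show it to T cells. The cDC1 subset presents antigen from dying cells to CD8 T cells and depends on the transcription factors Irf8 and Batf3. It carries Xcr1, the receptor for the chemokine Xcl1 that NK and CD8 T cells release, and Clec9a, a receptor for actin exposed by dead cells. The cDC2 subset favours CD4 T cells and, in part, carries the lectin Cd209a. Plasmacytoid DC (pDC) make type I interferon and carry the surface receptor Siglech. Flt3 is the receptor for the growth factor Flt3l that DC need, and Zbtb46 is a transcription factor of conventional DC and their committed precursors. DC that mature switch on Fscn1, an actin bundling protein needed for their dendrites, and Ccl22, a chemokine that draws Ccr4+ T cells such as regulatory T cells.

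The genes lie on 7 chromosomes, here in GRCm38 coordinates with the GENCODE M21 genes. Xcr1 is at chr9:123852315-123862029 on the minus strand and Clec9a at chr6:129408862-129424763 on the plus strand, where it overlaps Clec1b on the same strand. A read in the shared stretch cannot be given to Clec9a or Clec1b with certainty, so Clec1b is reported beside Clec9a below. Irf8 (chr8:120736358-120756694), Flt3 (chr5:147330741-147400489) and Zbtb46 (chr2:181387762-181459426) each overlap 1 predicted or small RNA gene, and Batf3, Cd209a, Siglech, Fscn1 and Ccl22 overlap none. The 250 bases before the RefSeq start of Xcr1 and Clec9a, which rose between days in DC of both genotypes, and of Cd209a, whose stretch holds 2 matches to the motif described next, are printed 5′ to 3′ on the gene's strand (RefSeq, GRCm38.p6). Capitals mark matches to AANNGAAA, the core that interferon regulatory factors bind, read on both strands.
Xcr1, chr9:123862030-123862279: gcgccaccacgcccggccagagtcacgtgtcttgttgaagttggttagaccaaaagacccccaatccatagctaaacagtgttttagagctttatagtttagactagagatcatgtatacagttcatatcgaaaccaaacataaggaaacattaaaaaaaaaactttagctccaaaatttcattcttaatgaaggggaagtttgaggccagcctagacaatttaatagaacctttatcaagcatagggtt
Clec9a, chr6:129408612-129408861: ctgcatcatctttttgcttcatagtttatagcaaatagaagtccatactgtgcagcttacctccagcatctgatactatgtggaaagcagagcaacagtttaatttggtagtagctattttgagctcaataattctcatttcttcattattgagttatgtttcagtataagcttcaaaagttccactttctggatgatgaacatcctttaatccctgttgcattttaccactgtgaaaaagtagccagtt
Cd209a, chr8:3748985-3749234: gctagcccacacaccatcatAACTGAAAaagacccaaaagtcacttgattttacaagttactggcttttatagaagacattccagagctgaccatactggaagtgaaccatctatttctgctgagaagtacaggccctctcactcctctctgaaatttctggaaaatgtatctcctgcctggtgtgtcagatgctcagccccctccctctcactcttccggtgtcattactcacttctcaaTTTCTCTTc
In windows from 250 bases before to 50 after the start, AANNGAAA was found in 23.9% of all 32851 promoters of the RefSeq table and, of the 10 members, only for Cd209a and Zbtb46. The AP-1 motif TGANTCA, read on both strands, was in 7.81% of promoters and, among the members, in that of Zbtb46 alone, at position -61. That window lies inside the longer GENCODE span of Zbtb46. The NF-kB motif was in 4.51% of promoters and in none of the members' windows. Letters that match are no evidence of binding.

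The study's annotation calls 1104 cells DC, in 4 of its 29 clusters, and the members fell into different ones. Cluster 19 (341 cells, led by Cd24a, Wdfy4, Cst3, Cadm1 and Itgae) was highest in Xcr1 and Clec9a, cluster 17 (386 cells, led by Mgl2, Ccl17 and Cd209d) in Cd209a, cluster 25 (137 cells, led by Ly6d, Ccr9, Cox6a2, Klk1 and Tcf4) in Siglech, and cluster 21 (240 cells, led by Ccr7, Il12b, Il4i1 and Cacnb3) in Fscn1 and Ccl22. Each of these genes may have helped to form the clusters, so the levels by cluster are a description with no test. The 7 DC markers used to check the label, mostly MHC class II genes, summed to 19260 to 38413 CPM in DC and to 23068 to 34699.9 in macrophages, so that Flt3, at 102 in DC and 1.12 in macrophages, set the annotated DC apart. DC held none of the beta cell transcripts Ins1, Ins2 and Iapp in any group, and 41 of the 1104 had a UMI of a T or B cell marker.

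**Figure D1:**
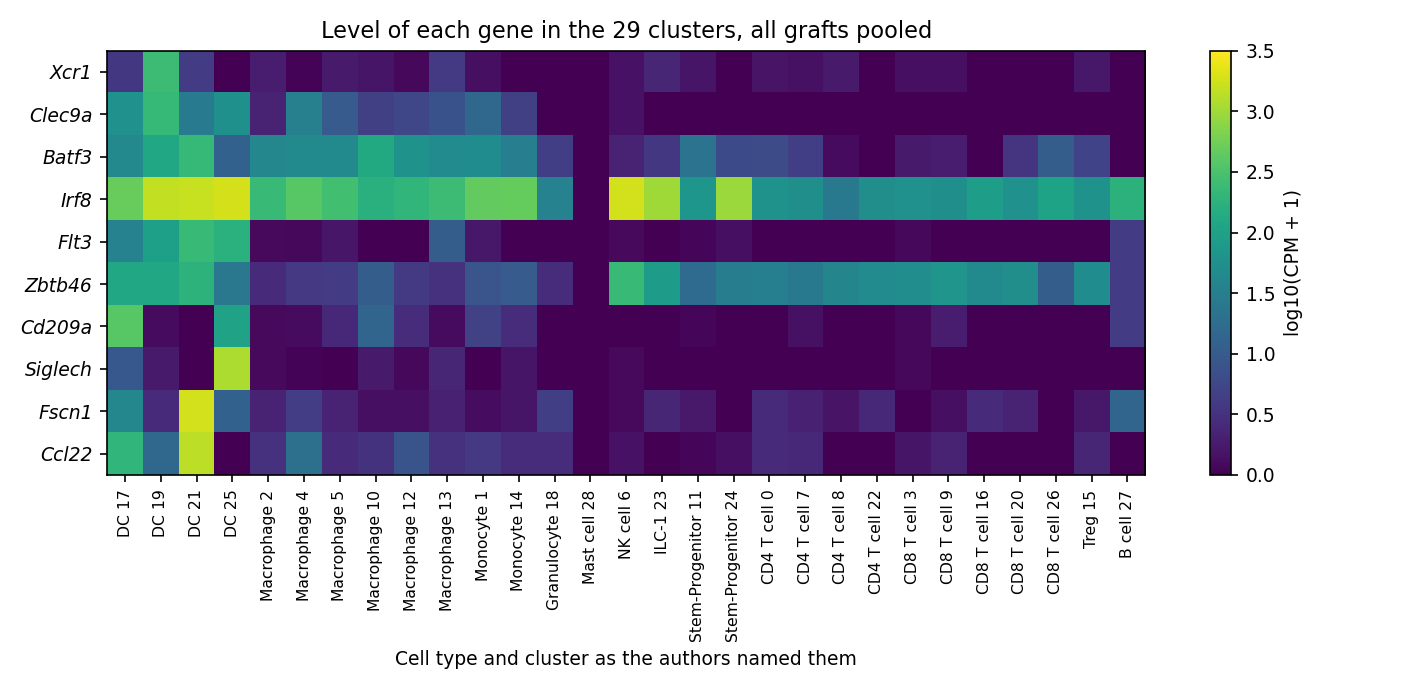
Level of each of the 10 genes (CPM, all cells of a cluster pooled; log colour scale) in each of the 29 clusters, grouped by the annotated cell type. Xcr1, Siglech, Fscn1 and Cd209a peak in 1 DC cluster each, while Irf8, Zbtb46 and Batf3 are also high in clusters of other cell types.

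Of the cDC1 receptors, Xcr1 was the more restricted. Cluster 19 held 251 CPM and 93.7% of all Xcr1 UMIs in the table, against 2.70 in cluster 17, 3.10 in cluster 21 and 0 in cluster 25. Of the 277 DC with an Xcr1 UMI, 268 were in cluster 19, and 82.3% of the 277 also had a Clec9a UMI, against 37.7% of all DC. In cluster 19 as a whole, 265 of the 341 cells had a Clec9a UMI. Outside DC, the level of Xcr1 was 0.71 in macrophages and 0.31 in CD8 T cells. The genes whose level over the 29 clusters was most like that of Xcr1, by Pearson correlation of log2 levels over 7074 genes, were Ccser1 (r = 0.996), Cd207 (r = 0.991), which encodes langerin, and 5730522E02Rik (r = 0.960). The clusters share libraries and depth, and all 3 genes were highest in cluster 19, as Xcr1 was.

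Clec9a was less restricted. Its level was 220 CPM in cluster 19, 57.5 in cluster 17, 55.4 in cluster 25 and 27.9 in cluster 21, and it was 32.5 in macrophage cluster 4 and 13.6 in monocyte cluster 1. DC held 62.3% of its UMIs, macrophages 29.1% and monocytes 8.5%, while CD8 T cells held none of its UMIs in 3449 cells. The share of cells with a Clec9a UMI was 37.7% in DC (median 6281.5 UMIs per cell), 4.97% in macrophages (median 4719 UMIs) and 5.03% in monocytes (median 4530 UMIs). The overlapping Clec1b had 407 UMIs in all, of which 181 were in DC and 173 in macrophages, at 37.7 CPM in cluster 19 and 12.2 in macrophage cluster 4. Its part in the counts given to Clec9a was not tested.

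Batf3, an AP-1 family factor that cDC1 need, was found in macrophages as well as DC. It was highest in cluster 21 (223 CPM), followed by macrophage cluster 10 (131), cluster 19 (121) and macrophage cluster 12 (61.6), and it was 43.6 in cluster 17 and 11.4 in cluster 25. DC held 21.8% of its UMIs and macrophages 58.3%. By cell type over grafts of at least 10 such cells, its level was 106 ± 27.4 in DC (SD, n = 16), 59.5 ± 19.9 in macrophages (n = 16) and 54.2 ± 21.0 in monocytes (n = 15). The macrophage and monocyte levels differed by less than their spread.

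Irf8 was highest of all in cluster 25 (1884 CPM) and next in NK cells (1797), then in cluster 21 (1629) and cluster 19 (1489), and in cluster 17 it was 488. Over grafts, its level was 1739 ± 278 in NK cells (SD, n = 16), 1219 ± 280 in DC (n = 16), 1022 ± 446 in ILC-1 (n = 8) and 474 ± 123 in monocytes (n = 15). The ranges of NK cells (1245 to 2281) and DC (741 to 1655) overlapped, as did those of DC and ILC-1. DC held 25.9% of its UMIs, macrophages 27.7%, NK cells 19.3% and monocytes 13.8%. CD8 T cells stood at 61.7 CPM.

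Zbtb46 was likewise highest in NK cells, at 226 ± 81.6 CPM (SD, n = 16), against 132 ± 33.2 in DC (n = 16), 88.8 ± 60.8 in ILC-1 (n = 8), 52.2 ± 34.4 in regulatory T cells (n = 14) and 48.1 ± 19.2 in CD8 T cells (n = 16). The ranges of NK cells (24.2 to 327) and DC (79.2 to 194) overlapped. Among DC it was 180 in cluster 21, 125 in cluster 19, 120 in cluster 17 and 24.4 in cluster 25. Cluster 25, the one with Siglech, was thus lowest in this factor of conventional DC. NK cells held 27.4% of Zbtb46 UMIs, DC 28.6%, CD8 T cells 14.5% and CD4 T cells 14.3%.

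Flt3, in contrast, kept to DC, with 93.8% of its UMIs there. It was highest in cluster 21 (228 CPM) and cluster 25 (171), lower in cluster 19 (94.2) and cluster 17 (34.7), and at most 9.7 in any cluster of other cells, macrophage cluster 13. The level in macrophages as a whole was 1.12 and in CD8 T cells 0.10. In all 4 DC clusters Flt3 was above every cluster of other cells, which no other member was.

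Cd209a was at 393 CPM in cluster 17 and 104 in cluster 25, and at 0.27 and 0 in clusters 19 and 21. DC held 88.7% of its UMIs. The genes most like it were Cyp7b1 (r = 0.950) and the related lectins Cd209d and Cd209e. Siglech was at 1184 in cluster 25 and at most 8.1 in any other DC cluster, with 97.9% of its UMIs in DC, and was most like Atp2a1 (r = 0.997), Klk1 and Gfra3. In cluster 25, 94.2% of cells had a Siglech UMI, against 0.0290% of CD8 T cells (medians 4161 and 2555 UMIs per cell).

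Both maturation genes peaked in cluster 21, at 1842 CPM for Fscn1 and 1431 for Ccl22. Cluster 17 came next, with 41.3 for Fscn1 and 198 for Ccl22. Of 285 DC with a Fscn1 UMI, 229 were in cluster 21, and 71.2% of the 285 also had a Ccl22 UMI, against 29.3% of all DC. In cluster 21 as a whole, 202 of the 240 cells had a Ccl22 UMI. No cell held both Siglech (148 cells) and Ccl22 (324 cells). DC held 96.0% of Fscn1 UMIs and 87.5% of those of Ccl22, for which macrophages held 10.2%. Ccl22 was most like Il12b (r = 0.993) and Ccl17, the other chemokine for Ccr4, and Fscn1 was most like Stap2 (r = 0.971).

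**Figure D2:**
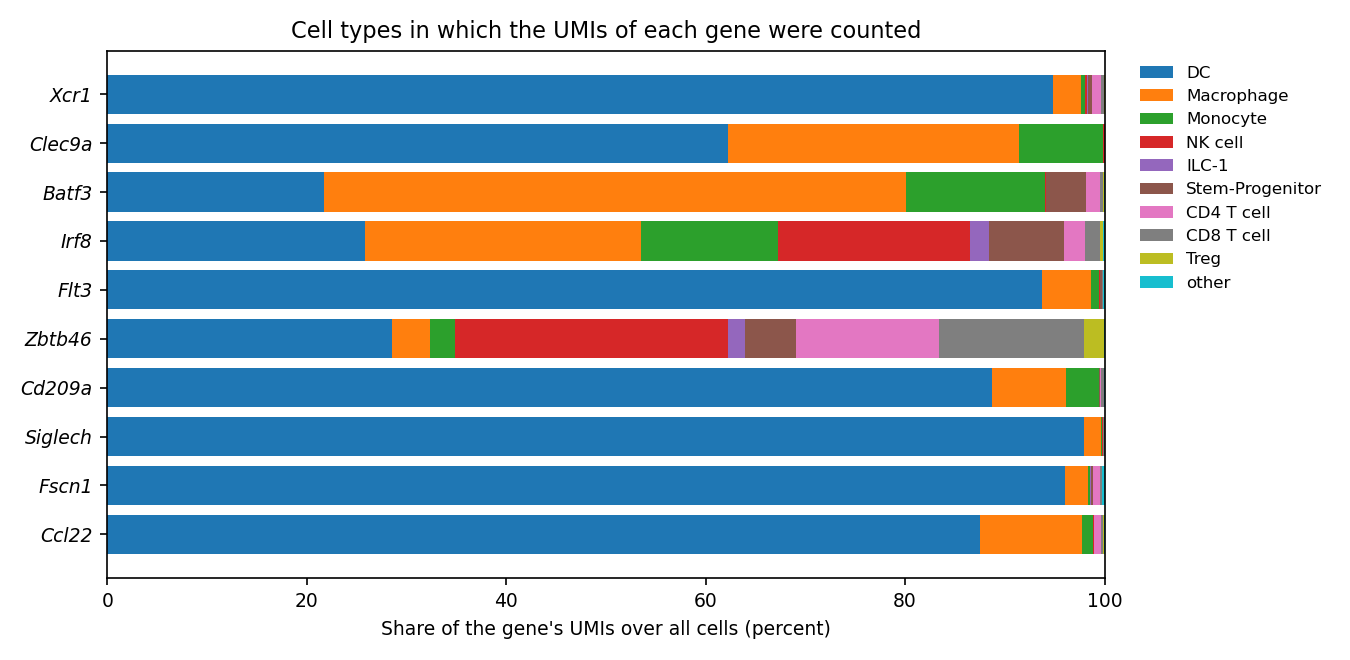
Percent of each gene's UMIs (horizontal axis) that came from each annotated cell type (colours), all 16 grafts pooled. DC hold 94.8% of Xcr1 and 97.9% of Siglech UMIs, but 28.6% of Zbtb46, 25.9% of Irf8 and 21.8% of Batf3 UMIs.

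Of the 9 partner genes, Xcl1, Flt3l and Ccr4 were found in other cells, while Tcf4 was among the genes that led DC cluster 25. Xcl1, the ligand of Xcr1, stood at 2207 CPM in ILC-1 and 1264 in NK cells, against 0.486 in DC. Flt3l stood at 22.7 in regulatory T cells, 19.6 in CD8 T cells and 18.5 in CD4 T cells. Ccr4, the receptor for Ccl22, was at 62.5 in regulatory T cells and 9.13 in CD4 T cells. By edgeR, none of the 3 passed the test between days over all CD45+ cells, where the lowest adjusted p was 0.0899 (Flt3l in Rnlsmut grafts, log2 fold change -0.41), or between genotypes. Of the whole list of 9 partner genes, 2 rose between days over all CD45+ cells in WT grafts and 2 rose and 1 fell in Rnlsmut grafts, where 37.9% and 46.7% of all genes were called. Tcf4, a transcription factor that pDC need, rose by 0.83 ± 0.13 on the log2 scale in WT (edgeR adjusted p = 0.00022) and by 1.73 ± 0.13 in Rnlsmut grafts (adjusted p = 5.29e-07). Csf2ra, a chain of the GM-CSF receptor, rose by 0.53 ± 0.12 and 0.38 ± 0.13, and Csf2, which encodes GM-CSF, fell by 2.04 ± 0.60 in Rnlsmut grafts (edgeR adjusted p = 0.011). In DC 0 of 5 partners tested passed in either genotype, where 10.2% and 14.6% of all genes were called in WT and Rnlsmut grafts. In cluster 19, where these shares were 10.1% and 9.4%, 2 of 4 rose in WT and 0 in Rnlsmut grafts, Id2 by 1.07 ± 0.22 and Nfil3 by 1.26 ± 0.29. In macrophages 1 of 6 rose and 1 fell in WT, and 1 rose and 4 fell in Rnlsmut grafts, where 25.1% and 42% of all genes were called. Tcf4 was the one that rose in both, and Id2 (-0.74 ± 0.17) and Nfil3 (-0.78 ± 0.21) were among those that fell in Rnlsmut macrophages.

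DC made up 6.58% ± 1.61 of CD45+ cells in WT grafts at day 10 (SD, n = 4), 4.82% ± 0.698 in Rnlsmut grafts at day 10, 4.57% ± 2.44 in WT grafts at day 17 and 3.04% ± 0.620 in Rnlsmut grafts at day 17. Over both days the share was 1.65 percentage points lower in Rnlsmut than in WT grafts (exact permutation test within days, two-sided, p = 0.0359). It was 1.76 points lower at day 10 (p = 0.114) and 1.54 lower at day 17 (p = 0.314), each by the exact test with 70 assignments, whose smallest p is 0.0286. With cells of high doublet score left out the difference over both days was -0.831 (exact permutation p = 0.205), as a share of myeloid cells it was -3.13 (p = 0.264), and in 11 of the 16 cases in which 1 graft was left out p rose above 0.05. From day 10 to day 17 the share fell by 1.78 points in Rnlsmut grafts (exact permutation p = 0.0286) and by 2.01 in WT grafts (p = 0.286). Leaving out Rnlsmut day 10 graft 1, 3 or 4 gave an exact permutation p of 0.0571, the values of the difference then being -1.88, -1.81 and -1.44. The test then had 35 assignments, and the days did not overlap in any of these cases. Single grafts and the doublet score also moved the differences that did not pass. At day 17 the genotype difference was -0.395 without WT day 17 graft 2 (exact permutation p = 0.543), -2.26 without WT day 17 graft 1 (p = 0.0571), -0.0558 without cells of high doublet score (p = 0.971) and -4.43 as a share of myeloid cells (p = 0.114). The day difference in WT grafts was -1.28 without WT day 17 graft 1 (exact permutation p = 0.429), -3.15 without graft 2 of that day (p = 0.0857), -3.50 without cells of high doublet score (p = 0.0857) and -8.08 as a share of myeloid cells (p = 0.114). The genotype difference at day 10 was -2.53 without WT day 10 graft 1 (exact permutation p = 0.0286), and that over both days was -1.08 without WT day 17 graft 2 (p = 0.0722).

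Cluster counts differed between the days. Of 502 DC in WT grafts at day 10, 218 were in cluster 17, 112 in 19, 101 in 21 and 71 in 25, and of 111 at day 17 these were 19, 70, 11 and 11. In Rnlsmut grafts the 323 DC of day 10 divided into 127, 60, 109 and 27, and the 168 of day 17 into 22, 99, 19 and 28. Cluster 19 thus held 22.3% and 18.6% of DC at day 10, and 63.1% and 58.9% at day 17. WT day 17 graft 3 stood apart, with 45 of its 50 DC in cluster 19. The members helped to form the clusters, so these counts carry no test, and they stand beside every day difference over all DC below.

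Over all DC, Clec9a rose from day 10 to day 17 in both genotypes. Per graft it was 60.4, 90.5, 70.3 and 77.4 CPM in WT grafts at day 10 and 233, 189, 332 and 120 at day 17. In Rnlsmut grafts it was 33.8, 56.8, 89.0 and 51.8 at day 10 and 246, 215, 187 and 199 at day 17. Every day 17 graft was above every day 10 graft of either genotype. The log2 fold change was 1.61 ± 0.27 (SE) in WT grafts (edgeR quasi-likelihood test, Benjamini-Hochberg adjusted p = 0.000949) and 1.86 ± 0.30 in Rnlsmut grafts (adjusted p = 0.000471).

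Xcr1 rose with it. WT grafts held 25.5, 72.5, 63.7 and 44.5 CPM at day 10 and 117, 109, 357 and 120 at day 17, and Rnlsmut grafts 10.4, 54.4, 87.5 and 44.2 at day 10 and 282, 177, 248 and 239 at day 17. The days did not overlap in either genotype, and WT day 17 graft 3 lay far above its group. The log2 fold change was 1.84 ± 0.43 in WT grafts (edgeR adjusted p = 0.0095) and 2.22 ± 0.45 in Rnlsmut grafts (adjusted p = 0.0033). Without WT day 17 graft 3 the WT value was 1.07 with an edgeR adjusted p of 0.0945.

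Siglech passed the test in Rnlsmut grafts. It was 57.3, 40.2, 33.2 and 41.2 CPM in DC of Rnlsmut grafts at day 10 and 196, 206, 148 and 318 at day 17, without overlap, with a log2 fold change of 2.29 ± 0.49 (edgeR adjusted p = 0.00465). In WT grafts it was 99.8, 73.4, 78.0 and 104 at day 10 and 296, 83.7, 22.4 and 234 at day 17, and the days overlapped. The WT log2 fold change was 0.65 ± 0.45 (edgeR adjusted p = 0.392), and without WT day 17 graft 3 it was 1.13 (adjusted p = 0.0245). The difference between the genotypes in this change, 1.64 ± 0.67 on the log2 scale, did not pass (edgeR adjusted p = 0.768). Within cluster 25, which held 1 to 22 cells a graft, its level ranged over 426 to 1370 for the day 10 grafts and over 1356 to 2631 for the day 17 grafts, given here with no test.

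Both maturation genes had lower mean levels at day 17 without passing the test. Ccl22 in WT grafts was 627, 267, 279 and 280 CPM at day 10 and 31.4, 164, 7.46 and 241 at day 17, which do not overlap, with a log2 fold change of -1.89 ± 0.66 (edgeR adjusted p = 0.0724). In Rnlsmut grafts it was 619, 402, 137 and 627 at day 10 and 308, 110, 325 and 119 at day 17, and the days overlapped (log2 fold change -0.92 ± 0.60, edgeR adjusted p = 0.323). Fscn1 had a log2 fold change of -1.17 ± 0.75 in WT grafts (edgeR adjusted p = 0.347) and -1.60 ± 0.76 in Rnlsmut grafts (adjusted p = 0.163). The call depended on which DC were counted. With cells of high doublet score left out, Ccl22 fell by 3.74 on the log2 scale in WT grafts (edgeR adjusted p = 0.00325). Fscn1 then fell by 7.30 in WT grafts (edgeR adjusted p = 0.000237) and by 1.58 in Rnlsmut grafts (adjusted p = 0.0403). In that setting WT day 17 graft 4, at 241 CPM for Ccl22 and 298 for Fscn1 over all its DC, had fewer than 10 DC and left the fit. WT day 17 graft 3 had 0 Fscn1 UMIs in DC, so the size of the WT falls rests on few grafts. Ccl22 in WT grafts also passed without WT day 17 graft 2 (-2.47, edgeR adjusted p = 0.0483) or graft 4 (-2.48, adjusted p = 0.0310), and Fscn1 in Rnlsmut grafts without WT day 17 graft 3 (-1.59, adjusted p = 0.0401).

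The other members did not pass the test in DC. Over all DC, Irf8 had log2 fold changes of -0.03 ± 0.21 and 0.15 ± 0.22 in WT and Rnlsmut grafts, Batf3 0.03 ± 0.27 and 0.12 ± 0.29, Zbtb46 0.28 ± 0.25 and 0.04 ± 0.26, Flt3 0.50 ± 0.24 and 0.33 ± 0.25, and Cd209a -0.37 ± 0.62 and -0.47 ± 0.61, with adjusted p from 0.199 to 0.979 by edgeR. Thus 2 of 10 members passed in WT grafts and 3 of 10 in Rnlsmut grafts, where 10.2% and 14.6% of all 5700 genes tested in DC passed. WT day 17 DC were more deeply sequenced, with a median of 12824 UMIs per cell against 5600 to 6536.5 in the other groups. The summed level of 8 macrophage markers in DC was 68.1 to 102 in WT and 61.5 to 85.9 in Rnlsmut grafts at day 10, 41.0 to 112 in WT grafts at day 17 and 174 to 278 in Rnlsmut grafts at day 17, where Mertk was at 0, against medians of 4236 to 13328 in macrophages. Its part in the changes was not tested.

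**Figure D3:**
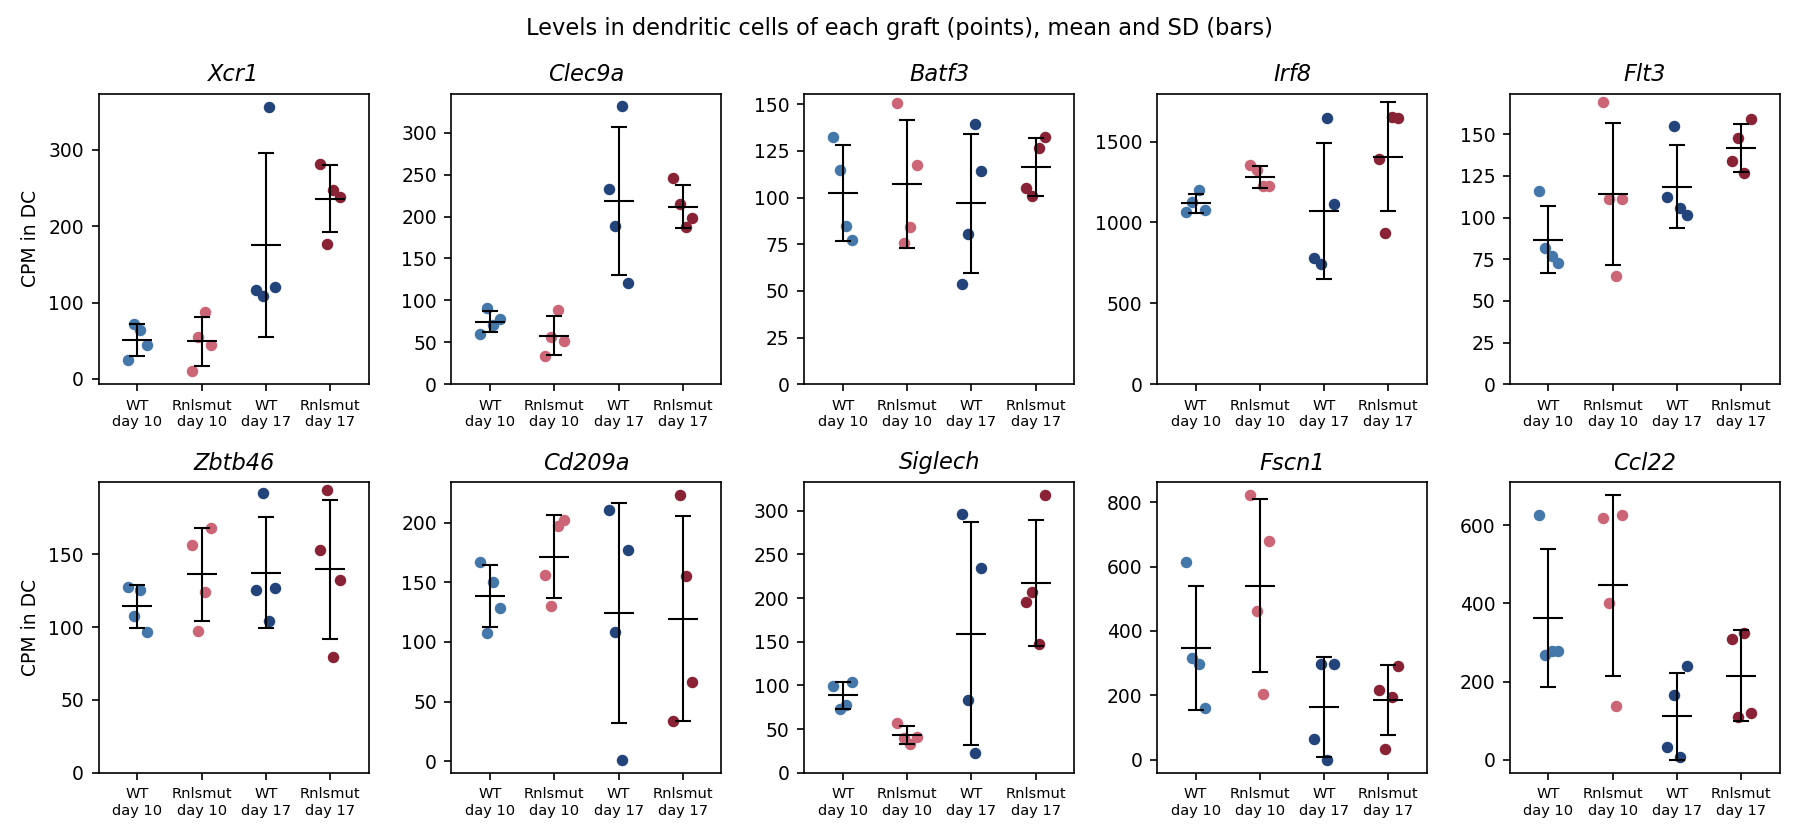
Level of each gene in DC (vertical axis, CPM of DC) in each of the 16 grafts (points), with the mean and SD of each group of 4 grafts. Clec9a and Xcr1 are higher in every day 17 graft than in any day 10 graft of the same genotype, as is Siglech in Rnlsmut grafts.

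Clec9a was also higher at day 17 within cluster 19, whose cells were grouped from these genes among others. In grafts with at least 10 such cells it was 156, 92.6 and 123 CPM in WT at day 10, 105, 118 and 79.2 in Rnlsmut at day 10, 317 and 343 in WT at day 17, and 354, 302, 259 and 253 in Rnlsmut at day 17. Among these grafts no day 17 graft fell as low as any day 10 graft. Of the grafts with fewer cells, WT day 10 graft 1 (6 cells) was at 172 and Rnlsmut day 10 graft 1 (5 cells) at 108. WT day 17 graft 1 (8 cells) was at 371 and WT day 17 graft 4 (4 cells) at 144, so that with all grafts counted the WT days overlap. The log2 fold change was 1.49 ± 0.24 in WT (edgeR adjusted p = 0.000632) and 1.61 ± 0.25 in Rnlsmut grafts (adjusted p = 0.000359). With cells thinned to 1000 UMIs each, the WT value was 1.52 with an edgeR adjusted p of 0.0965.

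Xcr1 in cluster 19 was 167, 199 and 108 CPM in WT at day 10, 150, 191 and 202 in Rnlsmut at day 10, 184 and 374 in WT at day 17, and 426, 276, 352 and 326 in Rnlsmut at day 17. The Rnlsmut days were apart and the WT days overlapped. Log2 fold changes were 1.01 ± 0.28 in WT (edgeR adjusted p = 0.0249) and 1.04 ± 0.26 in Rnlsmut grafts (adjusted p = 0.0154). The WT call rested on single grafts: without WT day 17 graft 3 it was 0.30 (edgeR adjusted p = 0.712), without WT day 10 graft 4 it was 0.74 (adjusted p = 0.123) and without graft 2 of that day 1.01 (adjusted p = 0.0785). The Rnlsmut call was lost without Rnlsmut day 10 graft 2 (0.91, edgeR adjusted p = 0.0861) or day 17 graft 1 (0.88, adjusted p = 0.0801).

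Flt3 in cluster 19 was 72.9, 92.6 and 49.0 in WT at day 10, 78.5, 69.0 and 72.0 in Rnlsmut at day 10, 179 and 111 in WT at day 17 and 119, 181, 112 and 145 in Rnlsmut at day 17, again in CPM. Its log2 fold changes, 1.04 ± 0.30 (edgeR adjusted p = 0.0329) and 0.98 ± 0.31 (adjusted p = 0.0465), were lost in most other settings, with 1 graft left out up to an adjusted p of 0.224 in WT and 0.146 in Rnlsmut grafts. Irf8, Batf3 and Zbtb46 in cluster 19 had log2 fold changes between -0.07 and 0.71 with adjusted p from 0.203 to 0.937. Cd209a, Siglech, Fscn1 and Ccl22 were too low in cluster 19 to be tested. The 3 calls of 6 members tested in each genotype stand beside 10.1% of 4659 genes in WT and 9.4% in Rnlsmut grafts.

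Shares of cluster 19 cells with a UMI, pooled over all grafts and given with no test, were also higher at day 17 once depth was equal. WT day 17 graft 3 gave 45 of the 70 WT cells of that day, and grafts with fewer than 10 such cells are included. After thinning to 1000 UMIs a cell, which no cell fell short of, Clec9a was found in 10.7% and 10% of cells in WT and Rnlsmut grafts at day 10 and 25.7% and 29.3% at day 17, against 69.6%, 58.3%, 97.1% and 84.8% without thinning. Xcr1 went from 11.6% and 15% to 37.1% and 31.3% after thinning. The summed macrophage markers in cluster 19 were 48.0 to 105, 13.1 to 32.9, 34.6 to 37.8 and 134 to 326 CPM in the same order of groups, with Mertk at 0 in all 4. A list of 3 cycling genes summed to 432 to 586, 108 to 386, 144 to 163 and 0 to 457. The part of either list in the day differences was not tested.

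Clec9a went the other way in macrophages. It was 32.6, 21.7, 20.7 and 12.7 CPM in WT and 31.3, 11.5, 37.2 and 48.3 in Rnlsmut grafts at day 10, and 5.20, 11.6, 2.87 and 13.8 in WT and 4.79, 3.73, 3.23 and 5.12 in Rnlsmut grafts at day 17. Rnlsmut days did not overlap, and in WT 1 day 17 graft stood above the lowest day 10 graft. It fell by 1.93 ± 0.48 on the log2 scale in WT (edgeR adjusted p = 0.00702) and by 3.03 ± 0.47 in Rnlsmut grafts (adjusted p = 0.000102). Within macrophage cluster 4, which held 701 and 742 cells in WT and Rnlsmut grafts at day 10 and 120 and 172 at day 17, the pooled level was 35.5 and 40.9 at day 10 and 14.2 and 7.35 at day 17.

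Irf8 fell in macrophages too, from 380, 422, 377 and 336 CPM to 193, 199, 209 and 232 in WT grafts, and from 339, 319, 355 and 418 to 301, 184, 197 and 227 in Rnlsmut grafts, with no overlap of days. The log2 fold changes were -1.03 ± 0.14 (edgeR adjusted p = 0.000132) and -0.78 ± 0.14 (adjusted p = 0.00039). Batf3 (0.46 ± 0.25 and 0.30 ± 0.25) and Ccl22 (-1.78 ± 0.75 and -0.56 ± 0.65) did not pass, with edgeR adjusted p from 0.0901 to 0.514. Ccl22 in WT macrophages passed without WT day 17 graft 1 (-2.82, edgeR adjusted p = 0.0249) and Batf3 without graft 3 (0.67, adjusted p = 0.0405). The other 6 members were too low in macrophages to be tested. The 2 of 4 members called in each genotype stand beside 25.1% of 9331 genes in WT and 42% in Rnlsmut macrophages. A list of 5 monocyte markers summed to 1127 to 1554 and 1040 to 1675 CPM in macrophages of WT and Rnlsmut grafts at day 10 and 511 to 1351 and 434 to 843 at day 17. Its part in the fall of Clec9a and Irf8 was not tested. In monocytes the days overlapped in Irf8 (exact permutation p = 0.286 in WT and 0.343 in Rnlsmut grafts).

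**Figure D4:**
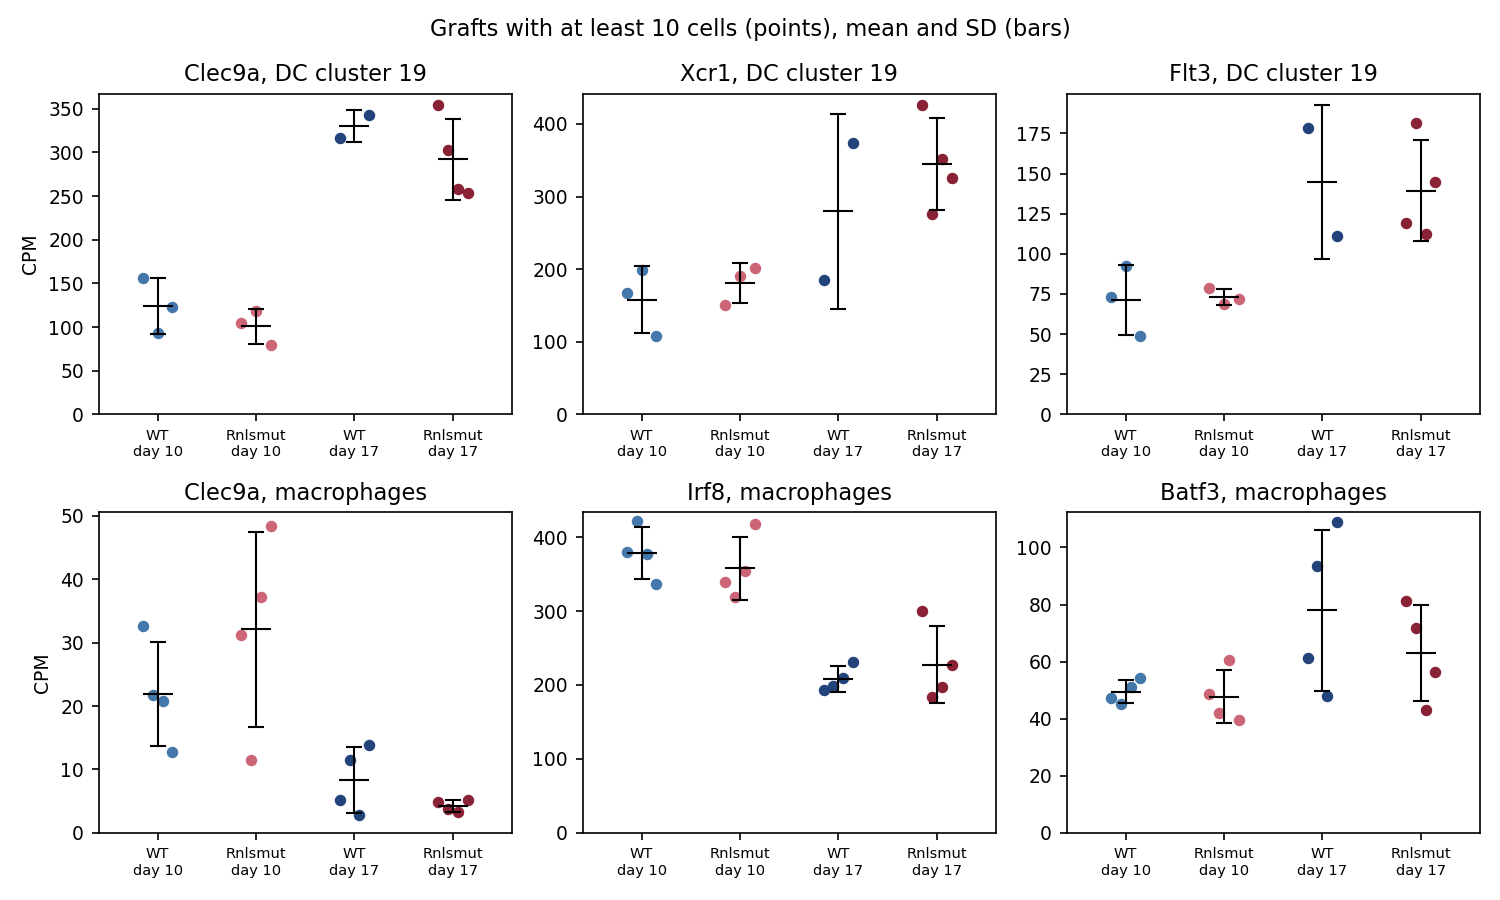
Levels (vertical axis, CPM of the cells named) of members in DC cluster 19 and in macrophages, 1 point per graft with the group mean and SD. Clec9a is higher at day 17 in cluster 19 and lower at day 17 in macrophages.

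In NK cells, Irf8 was 1723 to 2099 CPM in WT and 1488 to 2076 in Rnlsmut grafts at day 10, and 1491 to 2281 and 1245 to 2014 at day 17. All 4 ranges overlapped, and the log2 fold changes by day were -0.18 ± 0.16 and -0.09 ± 0.16 (edgeR adjusted p = 0.542 and 0.848). Zbtb46 changed by -0.77 ± 0.38 in WT (edgeR adjusted p = 0.229) and 0.21 ± 0.39 in Rnlsmut grafts (adjusted p = 0.858). It was 24.2 in WT day 17 graft 2 against 130 to 321 in the other 3 of that group, and without WT day 17 graft 3 the WT value was -1.42 (edgeR adjusted p = 0.0140). Of 3263 genes in NK cells 9.07% were called by day in WT and 2.67% in Rnlsmut grafts, and 0 of the 2 members, neither of which had an unadjusted p under 0.05.

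Summed over all CD45+ cells, where more cells of a type and more of a transcript per cell cannot be told apart, 3 of 10 members fell from day 10 to day 17 in WT grafts: Ccl22 by 1.93 ± 0.61 on the log2 scale (edgeR adjusted p = 0.0211), Zbtb46 by 0.76 ± 0.21 (adjusted p = 0.0104) and Irf8 by 0.59 ± 0.16 (adjusted p = 0.0101). In Rnlsmut grafts Siglech (1.87 ± 0.47, edgeR adjusted p = 0.00408), Xcr1 (1.66 ± 0.60, adjusted p = 0.0311) and Batf3 (0.84 ± 0.24, adjusted p = 0.0086) rose and Zbtb46 fell by 0.66 ± 0.21 (adjusted p = 0.0177). Of all 12560 genes, 37.9% and 46.7% were called, so that 3 and 4 of 10 is near the background. Batf3 was 24.2 to 34.3 CPM of all cells in Rnlsmut grafts at day 10 and 39.1 to 63.8 at day 17.

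Several of these calls rested on single grafts. Ccl22 in WT grafts was lost without WT day 17 graft 1 (-1.66, edgeR adjusted p = 0.0611). Xcr1 was lost without Rnlsmut day 10 graft 1 (1.28), 2 (1.66) or 4 (1.63), or day 17 graft 1 (1.55) or 3 (1.50), with edgeR adjusted p from 0.0569 to 0.0791. Zbtb46 in Rnlsmut grafts was lost without day 10 graft 4 (-0.47, edgeR adjusted p = 0.0756) or day 17 graft 1 (-0.62, adjusted p = 0.0507).

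**Figure D5:**
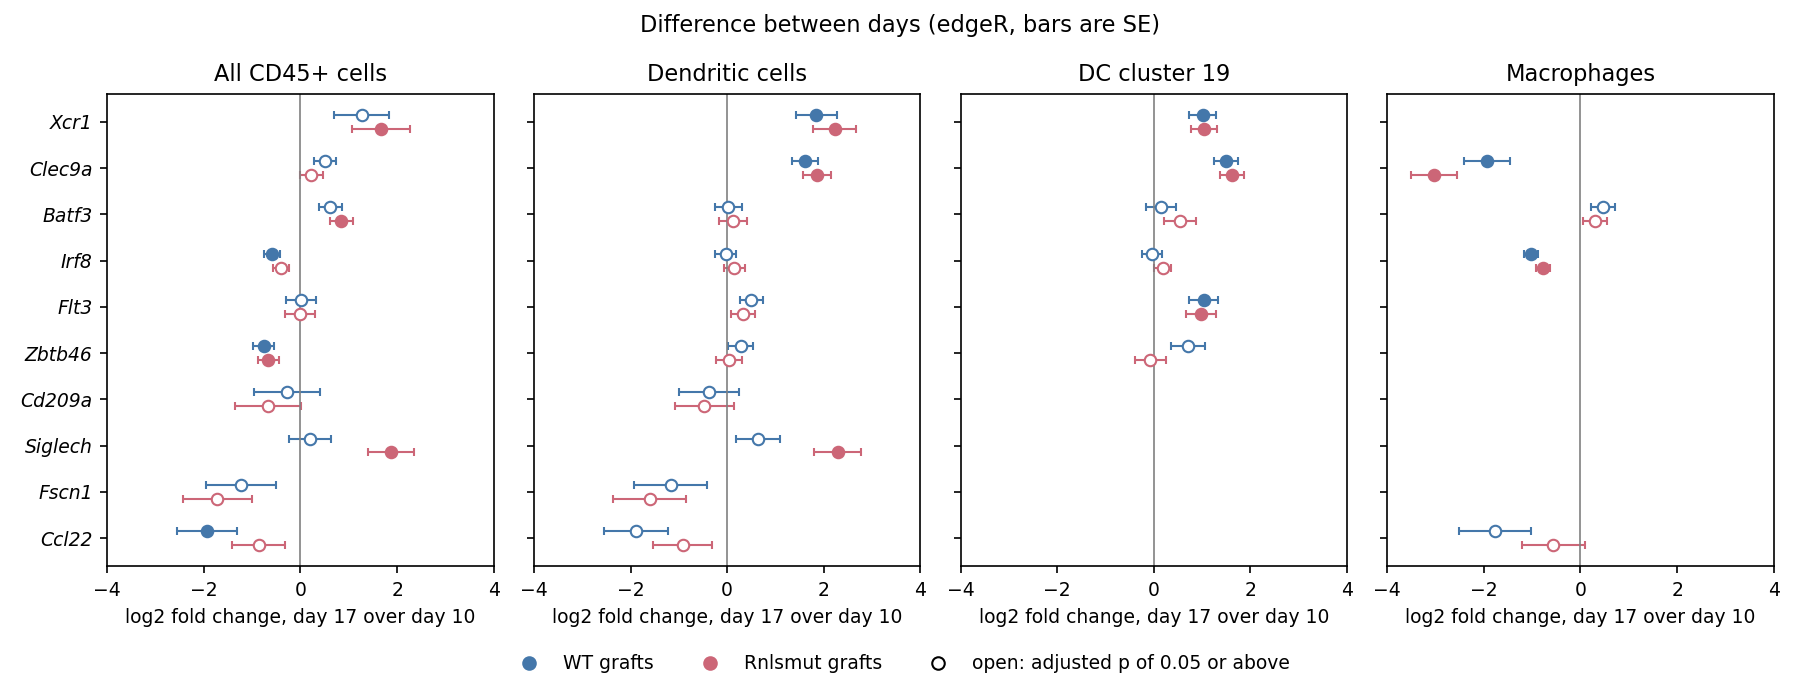
Log2 fold change from day 10 to day 17 (horizontal axis) with its SE for each member that could be tested, in WT and Rnlsmut grafts, for all CD45+ cells, DC, DC cluster 19 and macrophages. Clec9a lies above 0 in DC and cluster 19 and below 0 in macrophages in both genotypes.

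Other genes of the same programmes were read from fixed lists without the members, which were also chosen with earlier results of these data known. Among cDC1 genes in DC, 5 of 11 tested rose and 1 fell with day in WT grafts (median log2 fold change 1.18), and 5 rose and 0 fell in Rnlsmut grafts (median 1.54), against a median of 0.02 and -0.02 over all genes tested in DC, of which 10.2% and 14.6% were called. Cadm1, an adhesion protein of cDC1, rose by 1.72 ± 0.23 in WT grafts (edgeR adjusted p = 0.000171) and 2.56 ± 0.24 in Rnlsmut grafts (adjusted p = 1.08e-05). Tlr3, a receptor for double-stranded RNA, rose by 2.64 ± 0.41 and 3.27 ± 0.48, and Wdfy4, which cDC1 need for cross-presentation, by 1.18 ± 0.32 and 1.70 ± 0.33. The interferon-inducible Ifi205 fell by 1.09 ± 0.26 in WT grafts (edgeR adjusted p = 0.0123). Cadm1 and Wdfy4 are also among the genes that led cluster 19, whose share of DC was higher at day 17. Within cluster 19, 4 of 11 genes of this list rose and 1 fell in WT grafts (median 0.64), and 3 rose and 1 fell in Rnlsmut grafts (median 0.49). The medians over all genes tested there were 0.04 and -0.02, and 10.1% and 9.4% were called.

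Of the mature DC list, 1 of 17 rose and 2 fell over all DC in WT grafts (median log2 fold change -0.80), and 0 rose and 6 fell in Rnlsmut grafts (median -1.12), beside the same 10.2% and 14.6% of all genes. Ccl17 fell by 3.33 ± 0.68 and 2.29 ± 0.61 (edgeR adjusted p = 0.0042 and 0.0166) and Cd40, a costimulatory receptor, by 1.31 ± 0.37 and 1.40 ± 0.39. Cd274, which encodes PD-L1, fell by 1.39 ± 0.38 in Rnlsmut grafts (edgeR adjusted p = 0.0210). Between genotypes, 0 of the 17 genes were called in DC at either day, over both days or for the genotype by day difference. At most 0.0351% of all genes tested in DC were called in these comparisons. Within cluster 19 the same list had 3 of 9 tested genes up and 0 down in both genotypes, beside 10.1% and 9.4% of all genes tested there, among them Cd83 (0.88 ± 0.21 and 0.91 ± 0.19) and Cd86 (0.96 ± 0.20 and 0.60 ± 0.19). In macrophages 7 of 14 fell in WT and 8 of 14 in Rnlsmut grafts and 1 rose in each, beside 25.1% and 42% of all genes tested in macrophages, with Ccr7 falling by 4.26 ± 0.52 and 3.16 ± 0.45.

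Of the pDC list, 0 of 10 passed in WT DC, while in Rnlsmut DC Klk1 rose by 2.18 ± 0.65 (edgeR adjusted p = 0.0325) and Ly6d fell by 5.57 ± 1.48 (adjusted p = 0.0170). Both genes led cluster 25, the cluster of Siglech. Of the 7 genes tested from the cDC2 list, 1 rose and 1 fell in WT grafts, and 1 rose and 0 fell in Rnlsmut grafts. Klf4 rose by 1.45 ± 0.29 and 0.99 ± 0.29 in the 2 genotypes, and Irf4, a factor of cDC2 and mature DC, fell by 2.23 ± 0.50 in WT grafts (edgeR adjusted p = 0.00757). Of 8 genes that all DC share, 4 rose in WT and 3 in Rnlsmut grafts, with Cst3 up by 0.92 ± 0.21 and 0.79 ± 0.21. Cst3 is also among the genes that led cluster 19, whose share of DC was higher at day 17. The counts of these lists stand beside 10.2% and 14.6% of all genes tested in DC, called in WT and Rnlsmut grafts.

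By genotype, edgeR called 0 of the 10 members in DC or in all CD45+ cells, 0 of 6 in cluster 19, 0 of 4 in macrophages and 0 of 2 in NK cells, at day 10, at day 17, over both days and for the difference between the days. Few genes of any kind were called. In DC these were 0.0175% at day 10, 0.0175% at day 17, 0% over both days and 0.0351% for the genotype by day difference, and in all CD45+ cells 0.0796%, 0.0159%, 0% and 0.143% in the same order. In cluster 19 these shares were 0.0215%, 0.0215%, 0% and 0%, in macrophages 0.0322%, 0%, 0% and 0.0322%, and in NK cells 0.0306%, 0.184%, 0% and 0.398%. Although neither member tested passed in NK cells, H2-Aa, an MHC class II gene of the list that all DC share, was higher in Rnlsmut than in WT NK cells at day 17 (1.61 ± 0.30 on the log2 scale, edgeR adjusted p = 0.0146), 1 of 4 list genes tested. For the genotype by day difference 2 of the 4 passed, H2-Aa (2.57 ± 0.40, edgeR adjusted p = 0.00107) and Cd74 (1.96 ± 0.41, adjusted p = 0.0218). The NK fit was added after seeing the data. Macrophages made up 1293 of 7617 WT and 1046 of 6652 Rnlsmut cells at day 10, and 1450 of 2690 and 3390 of 5482 at day 17. Whether RNA of macrophages or DC is among the counts of NK cells was not tested. At an unadjusted p under 0.05, edgeR gave 308, 333, 315 and 343 of 5700 genes in DC, of which 1 (Siglech), 0, 0 and 1 (Siglech) were members. In all CD45+ cells it gave 888, 1033, 783 and 1189 genes, with 1 (Siglech), 1 (Clec9a), 2 (Clec9a and Siglech) and 1 (Siglech) members. In cluster 19 it gave 276, 283, 275 and 260 genes with 1 member (Zbtb46) at day 10 and 0 in the other comparisons. In macrophages it gave 659, 573, 383 and 873 genes and in NK cells 160, 192, 123 and 261, with 0 members in each. DESeq2 called 4, 3, 1 and 12 genes in DC, 1, 2, 0 and 2 in cluster 19, 16, 6, 0 and 43 in macrophages, 5, 8, 0 and 16 in NK cells and 86, 27, 29 and 93 in all CD45+ cells, with Siglech at day 10 in all CD45+ cells the 1 member among them.

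Of the 10 members, Siglech and Irf8 did not overlap between genotypes in DC at day 10. The share of all genes without overlap is not given here, so these members have no background beside them. Siglech in DC at day 10 was 73.4 to 104 in WT and 33.2 to 57.3 in Rnlsmut grafts, which do not overlap (exact permutation p = 0.0286, the smallest it can give, edgeR log2 fold change -1.10 ± 0.47, adjusted p = 0.907). Summed over all CD45+ cells at day 10 it was 5.32 to 13.0 in WT and 2.58 to 3.44 in Rnlsmut grafts, again apart, with a log2 fold change of -1.62 ± 0.45 and an adjusted p of 0.309 by edgeR and 0.0487 by DESeq2. Without WT day 17 graft 3, which is not in this comparison but enters the estimate of spread, the edgeR adjusted p was 0.0126. At day 17 the genotypes overlapped in both. Cluster 25, the cluster of Siglech, held 71 of the 502 WT and 27 of the 323 Rnlsmut DC at day 10. Within it Siglech was 666 to 1146 CPM in WT and 426 to 1370 in Rnlsmut grafts at day 10, which overlap. The part of the cluster's share in the difference over all DC was not tested.

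Irf8 in DC at day 10 was 1063, 1128, 1200 and 1079 CPM in WT and 1353, 1322, 1225 and 1227 in Rnlsmut grafts, higher in each of the 4 Rnlsmut grafts than in any WT graft (exact permutation p = 0.0286), with an edgeR log2 fold change of 0.16 ± 0.21 (adjusted p = 0.947). Clec9a summed over all cells at day 10 was 14.7 to 16.6 in WT and 8.79 to 14.2 in Rnlsmut grafts, without overlap, with an edgeR adjusted p of 0.815, and over both days the exact permutation p was 0.0188 beside an edgeR adjusted p of 0.749. Within cluster 21 at day 10, Clec9a was 41.1, 24.9, 37.4 and 34.0 CPM in WT and 22.9, 23.9, 14.4 and 18.8 in Rnlsmut grafts, on 1 to 6 UMIs a graft. The genotypes did not overlap (exact permutation p = 0.0286), and among the 20 exact tests of members in clusters 17 and 21 at day 10 the next lowest p was 0.0571, for Irf8 and Cd209a in cluster 17. No p of these exact tests is adjusted for the number of members looked at. For the other members the intervals were wide, with standard errors of the DC log2 difference between genotypes at day 10 from 0.21 for Irf8 to 0.68 for Fscn1.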

How the data were processed

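CD45+ PI- cells sorted from each graft were labelled with hashtag antibodies, pooled and run as 10x Genomics 3′ libraries. The authors deposited 1 table of raw UMI counts, as whole numbers per gene and cell with no normalization, and a table giving each cell's library, hashtag, cluster and cell type; the submitters' processing notes name Cell Ranger and mm10. The deposited cells had at least 1001 UMIs and at most 9.74% mitochondrial UMIs. Clusters and cell types are the authors'. The hashtag libraries and the Rnls gene were not analysed here, and 0 columns of per-sample values were set aside.

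The members and the gene lists were chosen with earlier results of these data known. Named genes are the 10 members, the 3 genes most like each over the 29 clusters (Pearson correlation of log2 of CPM, UMIs per 1000000, plus 10, genes reaching 50 in a cluster), and the called genes of the fixed lists (cDC1, cDC2, pDC, mature DC, genes shared by DC, partners). Counts were summed per graft over all CD45+ cells, DC, DC cluster 19, macrophages and NK cells, leaving out grafts with fewer than 10 such cells. DC clusters 17, 21 and 25 lacked 2 grafts of at least 10 cells in each group at day 17 and were not fitted; at day 10 levels in clusters 17 and 21 were compared by the exact test. The NK fit was added after seeing the data. Genes kept by filterByExpr were tested with the edgeR 4.0.16 quasi-likelihood test in R 4.3.3 (TMM scaling, 1 coefficient per group, all groups in 1 fit, Benjamini-Hochberg adjustment over all genes tested, threshold 0.05). Levels per graft and the DC share were compared by two-sided exact permutation tests over grafts (SciPy 1.17.1), with 70 assignments for 4 against 4 grafts and 4900 over both days; shares of clusters within DC, planned as a test, are given without one because the members helped to form the clusters. The fit was tested on simulated data.

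Alternatives were DESeq2 1.42.0, no TMM, no filter on low counts, at least 1 or at least 20 cells, the hashtag as a block, each day or genotype fitted alone, cells thinned to 1000 UMIs, cells of high doublet score left out, DC with a T or B cell UMI left out, and each graft left out. The Scrublet threshold (scanpy 1.11.5) marked 2 cells and so had not worked. In its place the highest 6% of scores in each library, 1345 cells of which 127 were DC, were left out as an alternative. Promoters came from a RefSeq table (GRCm38.p6), in which all 10 members were found.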

Additional observations from a re-analysis of the deposited data

Results flagged for a closer look

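In 4 of 114 sets of 4 grafts, 1 graft lay far from the other 3 by Dixon's criterion, which chance does in about 1 set in 20. Xcr1 in DC of WT day 17 graft 3 was 356.7 CPM against 109 to 120 in the other 3 grafts, the graft in which 45 of 50 DC were in cluster 19. Ccl22 in DC of WT day 10 graft 1 was 626.9 against 267 to 280. Flt3 over all CD45+ cells of WT day 17 graft 2 was 24.16 against 5.66 to 8.74. Irf8 over all CD45+ cells of Rnlsmut day 17 graft 2 was 233.7 against 319 to 332.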

How the results depend on the processing

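No difference reversed under any alternative. Of the named differences for single members, 454 alternatives kept the call and 46 lost it. The numbers of members called by edgeR changed as follows. Over all CD45+ cells, the genotype at day 10 gave 1 with DESeq2 and 1 with the day fitted alone in place of 0, and with 1 graft left out 0 to 1. There the day gave 5 in WT grafts with thinned cells in place of 3, and with 1 graft left out 3 to 5 in WT and 2 to 6 in Rnlsmut grafts. In DC without a filter on low counts, 1 member was called for genotype at day 10, 1 at day 17, 1 over both days and 1 for the genotype by day difference, and 4 in WT and 5 in Rnlsmut grafts for day, in place of 0, 0, 0, 0, 2 and 3. In DC without cells of high doublet score, 4 were called for day in WT grafts, where WT day 17 graft 4 was then under the minimum of 10 cells. In cluster 19 the day gave 1 in WT grafts with DESeq2, 1 with the genotype fitted alone and 0 with thinned cells in place of 3, and in Rnlsmut grafts 1 with at least 20 cells, 1 with thinned cells and 1 with the hashtag as a replicate block in place of 3. With 1 graft left out these were 1 to 3 in WT and 1 to 4 in Rnlsmut grafts. In macrophages the day gave 5 in WT grafts without a filter and 1 with thinned cells in place of 2, and 1 in Rnlsmut grafts with thinned cells in place of 2. In NK cells the day in WT grafts gave 1 without a filter in place of 0, and 0 to 1 with 1 graft left out. The cause of these changes was not tested.

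The difference in DC share over both days was -3.13 of myeloid cells and -0.831 without cells of high doublet score, and with 1 graft left out -2.03 to -1.08. With 1 graft left out the genotype difference at day 10 was -2.53 to -1.33, and the day difference in Rnlsmut grafts -2.05 to -1.44. Same-numbered hashtags did not pair the grafts (correlations of deviations -0.198 to 0.376 over all cells), and the block changed no other number of members called by over 1.5 times. Depth limits cluster 19, where thinning left Clec9a in 10% to 29.3% of cells, and clusters 17, 21 and 25 at day 17, which held 11 to 28 cells a group.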
